A study of Mus musculus with 32 samples.

Results

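Trans contacts of protein-coding RNAs are RNA–DNA pairs in which a tag from the transcript of a protein-coding gene was ligated to DNA of another chromosome. They were taken from RADICL-seq, which joins RNA to nearby DNA through a bridge adapter and sequences both ends as short tags. The joining took place inside crosslinked nuclei, except in the NPM libraries described below. An interaction is one pair of an RNA tag and a DNA tag, and the deposited lists hold only interactions whose transcript and 25-kb DNA bin had been called significant by the authors. A trans contact was an interaction with a protein-coding RNA gene, an RNA and a DNA tag on different chromosomes, and a DNA tag outside chr17:39825001-39850000 and outside the first 45 Mb of chromosome 5 (mm10). Of 25231081 interactions in 15 libraries, 16825 met this rule, which is 0.0771% of the interactions of protein-coding RNAs. They came from 422 RNA genes and fell into 433 DNA bins, in 1308 combinations of RNA gene and bin (pairs).

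The 15 libraries form 6 groups of mouse cells in culture. The mESC 1FA group (3 libraries) is the R08 embryonic stem cell line fixed with 1% formaldehyde, and the mESC 2FA group (3) is the same line fixed with 2%. The mESC ActD4 group (2) received 5 µg/ml of the transcription inhibitor actinomycin D for 4 h before 1% formaldehyde. In the mESC NPM group (2), for non-protein-mediated contacts, the 1% formaldehyde crosslinks were reversed and proteins were digested before the RNA was ligated. RNA and DNA were then ligated in solution and not inside nuclei, so NPM and 1FA differ in more than the presence of proteins. The mOPC 1FA (3) and mOPC NPM (2) groups are Oli-neu, a line of oligodendrocyte progenitor cells, with the same 1% fixation and, for NPM, the same changed protocol. Each cell type is thus represented by 1 line. The list of stem cell marker genes held 6427 to 11052 contacts per 1000000 contacts over all DNA in the mESC libraries and 447 to 561 in the mOPC libraries. The list of oligodendrocyte progenitor markers held 10492 to 18693 in the mOPC libraries and 4.53 to 205 in the mESC libraries, so the labels and the markers go together. Libraries held 251802 to 2832717 interactions, lowest in mESC ActD4, and the second mESC NPM library had 24166 trans contacts in the 2 excluded DNA regions where the first had 8420.

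Most RNA that is found on chromatin is nascent or newly spliced, and a protein-coding transcript is mostly intron until it is processed. Such RNA meets chiefly the DNA of its own gene and chromosome, and a contact with another chromosome joins loci that are not linked in the genome. Many highly transcribed loci, the ribosomal RNA genes and the genes of abundant nuclear long non-coding RNAs gather at nuclear bodies, and short tags from repeated sequence are harder to place in a genome than unique ones.

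Some DNA tags lay where the sequence occurs elsewhere, and those sequences are shown first. A search compared the 27 bases around each RNA tag with the DNA within 1000 bases of its DNA tag, and called the pair similar when at least 23 of the 27 bases were identical. Similar stretches were found for 14 pairs, in the NPM groups only, and the 5 shown had an RNA tag in coding sequence. Gm8396, Gm19028 and Calr-ps are annotated as processed pseudogenes and Gm26704 as a long non-coding RNA gene. Each label gives the annotation at the DNA tag of the contact shown, not at the printed match. For Slc5a6 that tag lay outside genes and 167 bases from the match, while other DNA tags of the pair lay in Gm6157. The sequences are from the mm10 reference, 5′ to 3′, and capitals mark the bases that differ.
Slbp RNA, coding sequence, chr5:33645565-33645591 (-): acggatgaAagtgtcttgatgagaaGg
Slbp near match, DNA in Gm8396, chr14:7801597-7801623 (+): acggatgaGagtgtcttgatgagaaAg
Slc5a6 RNA, coding sequence, chr5:31043279-31043305 (-): caacCtcaGgctccagcggggctattt
Slc5a6 near match, DNA between annotated genes, chr6:70430765-70430791 (-): caacTtcaAgctccagcggggctattt
Ddx3x RNA, coding sequence, chrX:13287505-13287531 (+): aatatgatgAcattccagtcgAagcaa
Ddx3x near match, DNA in Gm19028, chr1:27990361-27990387 (+): aatatgatgTcattccagtcgTagcaa
Calr RNA, coding sequence, chr8:84842791-84842817 (-): caggatgaggagcagaggcttaaggAA
Calr near match, DNA in Calr-ps, chr2:140955899-140955925 (-): caggatgaggagcagaggcttaaggTG
Atad3a RNA, coding sequence, chr4:155753907-155753933 (-): agattCgactcaaggctgctgagcacc
Atad3a near match, DNA in Gm26704, chr15:38990860-38990886 (+): agattTgactcaaggctgctgagcacc

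The same question was put to the DNA bins that many RNAs shared, comparing the window around each bin's leading DNA position with the other shared bins and with the left-out bin of chromosome 17. The left-out start of chromosome 5 and the rest of the genome were not searched. Over all groups the leading position held only 7 of 3026 contacts in chr11:3150001-3175000 and 6 of 2350 in chr11:3175001-3200000. The search therefore cannot show whether a bin without a match has copies elsewhere. The 2 matches shown are those with at least 23 of 27 identical bases. One joins a bin on chromosome 6 to a left-out stretch of chromosome 17 where RefSeq lists the small-subunit ribosomal RNA copy Rn18s-rs5, and the other joins a bin on chromosome 9 to one on chromosome 2.
chromosome 6 bin, chr6:3201506-3201532 (+): agataccgtCgtagttccGaccataaa
left-out DNA, chr17:39847417-39847443 (+): agataccgtTgtagttccAaccataaa
chromosome 9 bin, chr9:35305452-35305478 (+): cCcactgaaggacctggaatatggGga
chromosome 2 bin, chr2:98666640-98666666 (+): cAcactgaaggacctggaatatggAga

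Trans contacts were a very small share of the interactions of protein-coding RNAs in all groups and were most frequent in the NPM groups. In the 1FA groups, with the 2 DNA regions left out, the share was larger in mOPC than in mESC libraries. In mESC it was smaller with 2% formaldehyde and after actinomycin D than in 1FA. The groups did not overlap except for the 2 NPM groups.

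In the 3 mESC 1FA libraries 281, 274 and 298 trans contacts made up 0.0116%, 0.0125% and 0.0116% of protein-coding RNA interactions, a mean of 0.0119% ± 0.000544 (SD, n = 3). In mESC 2FA 142, 145 and 148 contacts made up 0.00694%, 0.00787% and 0.00643%. In mESC ActD4 only 17 and 8 contacts were listed, 0.00460% and 0.00362%. The 3 groups therefore did not overlap, and the ActD4 values rest on 25 contacts in all. In mOPC 1FA 1488, 1485 and 1496 contacts made up 0.0879%, 0.0911% and 0.0951%. In mESC NPM 1591 and 1491 contacts made up 0.408% and 0.273%, and in mOPC NPM 4049 and 3912 made up 0.381% and 0.409%. The 2 mESC NPM libraries differed more from each other than the libraries of any other group, and the mOPC NPM values lay across their upper end.

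**Figure D1:**
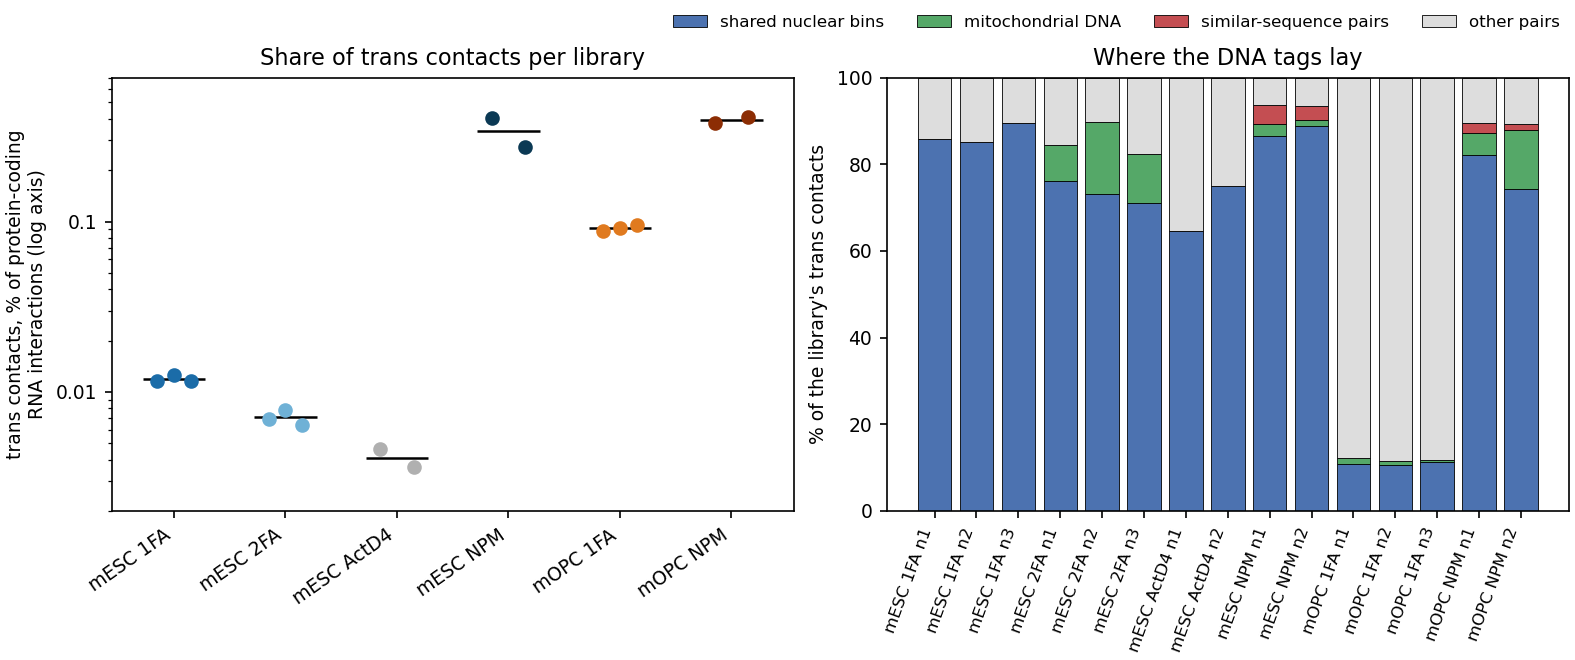
Left, trans contacts as a percentage of protein-coding RNA interactions in each of the 15 libraries (points, log axis), with the mean of each group as a line. Right, the same contacts split by DNA side, in percent of each library's trans contacts: shared nuclear bins, mitochondrial DNA, similar-sequence pairs and other pairs. The NPM libraries lie between 0.273% and 0.409%, above all 1FA libraries, and mOPC 1FA is the group in which other pairs dominate.

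The mOPC 1FA mean exceeded the mESC 1FA mean by 0.0795 percentage points (two-sided exact permutation test over libraries, p = 0.1, the smallest value that 3 against 3 allows). With the excluded DNA regions counted the difference was 0.0108 points (exact p = 0.8), with 0.115% to 0.223% in mESC and 0.151% to 0.193% in mOPC, so it rests on leaving those regions out. The 2FA mean differed from the 1FA mean by -0.00482 points, with p = 0.1 in the same exact test. For the comparison with actinomycin D, and for NPM against 1FA within a cell type, 3 libraries against 2 cannot give an exact p below 0.2, and each gave 0.2. With the excluded regions counted these differences were larger, -0.0606 points for 2FA (exact p = 0.3), -0.105 for actinomycin D, 3.29 for mESC NPM and 0.745 for mOPC NPM. Over both cell types, permuting NPM and 1FA labels within cell type, NPM was higher by 0.316 points (exact p = 0.02, the smallest possible). The NPM minus 1FA difference was 0.329 points in mESC and 0.304 in mOPC, and the test of the difference between them gave an exact p of 0.92. Over both protocols, mOPC was higher than mESC by 0.0670 points (exact p = 0.0333). That last result did not last: without the RNA genes of the start of chromosome 5, which held 42.5% to 47.9% of the mOPC 1FA contacts, the difference was 0.00839 points (exact p = 0.833), and with the excluded DNA regions counted it turned to -1.26 points (exact p = 0.217). Without the DNA bins shared by many RNA genes, the NPM minus 1FA difference was 0.0338 points in mESC, -0.0315 in mOPC and 0.00113 over both (exact p = 0.92). The authors called significance on pooled replicates, so the spread between libraries understates what independent calls would give, and a library with no contact listed for a gene is not one in which the gene had none.

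On the DNA side, a handful of bins received most contacts in every group except mOPC 1FA. A shared bin was defined as a 25-kb bin contacted by at least 5 RNA genes in some group, a definition chosen after seeing the data, and 14 nuclear bins and the mitochondrial genome met it. Shared nuclear bins held 86.9% of trans contacts in mESC 1FA, 73.3% in mESC 2FA, 68.0% in mESC ActD4, 87.6% in mESC NPM and 78.3% in mOPC NPM, and 10.9% in mOPC 1FA. Bins contacted by a single RNA gene held 80.2% of the mOPC 1FA contacts and at most 32% in any other group. These shares describe a definition made on these contacts and were not tested.

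The leading bins in mESC 1FA were neighbours at the start of chromosome 11, where Sfi1, which encodes a centrosome protein, and Drg1, which encodes a GTP-binding protein, are annotated. The bin chr11:3150001-3175000, inside Sfi1, held 138, 133 and 154 contacts from 37 RNA genes on 414 distinct DNA positions. The next bin, chr11:3175001-3200000, held 88, 86 and 93. Together they received most of the group's contacts, and the contacts were spread over the bin and did not stack on one position. The first of them was also the leading bin in mESC 2FA (65, 68 and 72 contacts), in mESC ActD4 (11 and 6) and in mOPC NPM (989 and 964 contacts from 152 RNA genes). By gene, Sfi1 lay under 655 of the 853 mESC 1FA contacts (213, 207 and 235), 284 of the 2FA contacts, 17 of the ActD4 contacts and 3355 of the mOPC NPM contacts. Drg1 lay under 128, 49, 0 and 897. Gm12735, Rnf121, Cdc26 and Slc31a1 followed Sfi1 and Drg1 in mESC 1FA with 10 to 15 contacts each.

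The mESC NPM contacts had other leading bins. A bin on chromosome 18 that holds n-R5-8s1, annotated as a ribosomal RNA gene, received 910 and 306 contacts from 110 RNA genes, and they fell on 39 DNA positions, 490 of them on a single one. The bin chr11:109000001-109025000 received 261 and 606 contacts from 79 RNA genes on 159 positions. The first of these bins was the leading one in the first library and the second in the second library, so the 2 libraries ranked them in opposite order. The bins chr15:85175001-85200000 (32 and 82 contacts, 20 positions) and chr6:3200001-3225000 (44 and 63 contacts, 16 positions within 892 bases) were similarly concentrated. The chromosome 6 bin is the one whose leading window, with 40 of its 107 contacts, differed by 2 bases from the left-out ribosomal RNA copy shown above. By gene, n-R5-8s1 was followed by Sfi1 (99 and 203 contacts), Drg1 with 93, Gabrb1, which encodes a receptor subunit for the transmitter GABA, with 46, and Cdk8, a kinase of the Mediator complex, with 44.

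In mOPC NPM the Sfi1 bins were followed by the genes of the abundant nuclear long non-coding RNAs on chromosome 19. Malat1, a component of nuclear speckles, lay under 864 and 619 contacts, and Neat1, the scaffold of paraspeckles, under 317 and 100. The bin chr19:5800001-5825000 received 460 and 469 contacts from 69 RNA genes on 566 positions, while its neighbours chr19:5775001-5800000 and chr19:5825001-5850000 received 442 and 192, and 311 and 100. The first library thus carried most of the contacts of Neat1 and of those neighbours. Mitochondrial DNA received 209 and 530 contacts from 60 RNA genes in mOPC NPM, against 21, 15 and 9 in mOPC 1FA, 12, 24 and 17 in mESC 2FA, 43 and 23 in mESC NPM and none listed in mESC 1FA and ActD4. The mOPC NPM libraries therefore differed from each other in their mitochondrial contacts as well. The chromosome 9 and chromosome 2 bins whose windows are printed above, the second of which holds Gm10801, held 115 and 89 contacts in mOPC NPM.

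**Figure D2:**
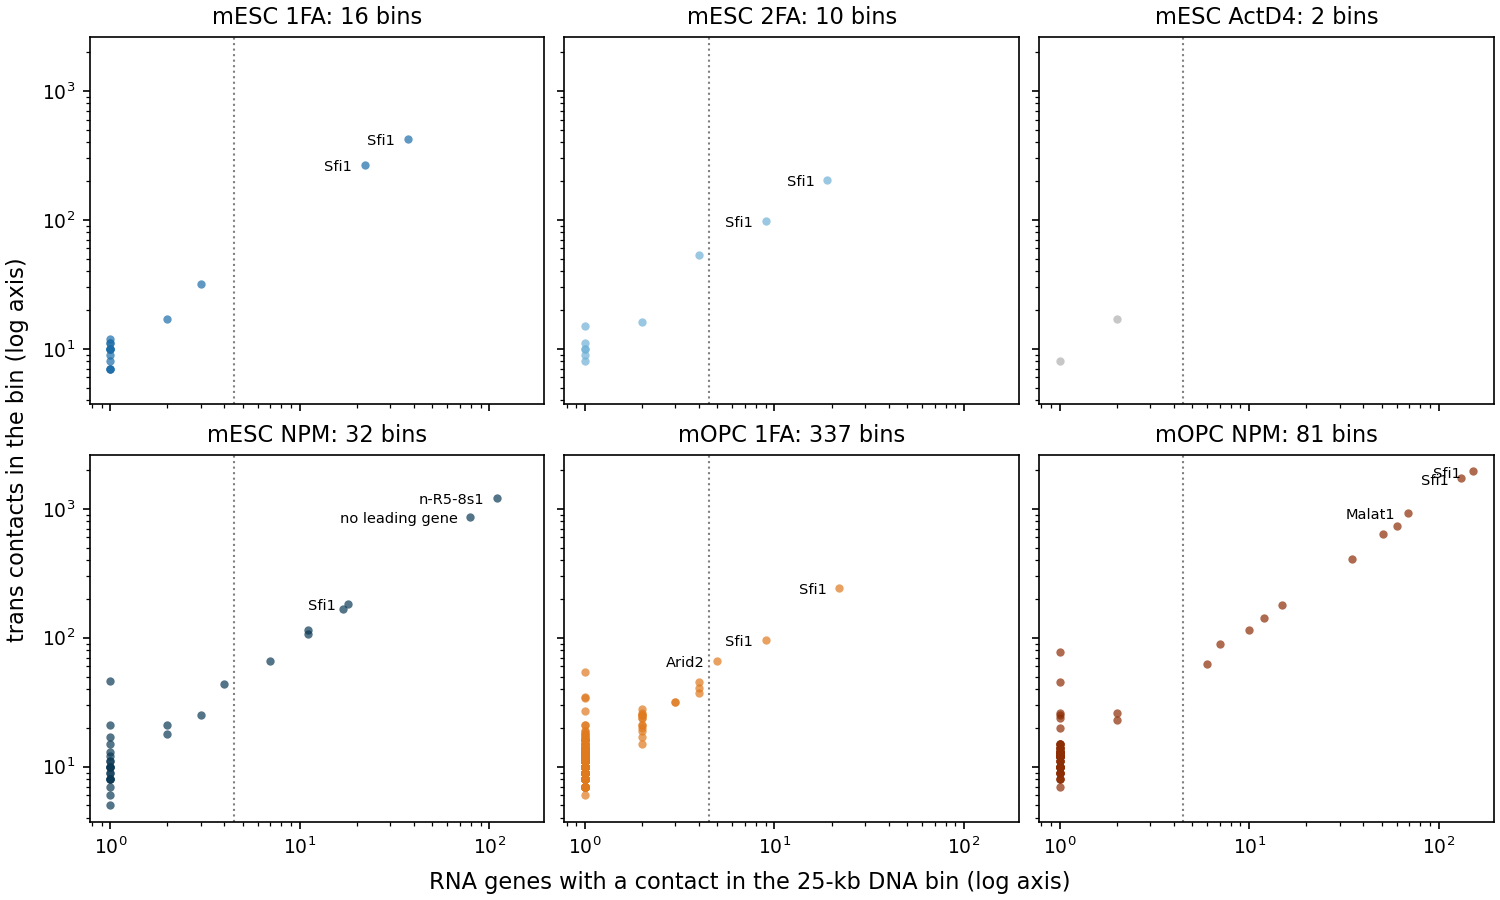
For each group, the number of RNA genes that contacted a DNA bin against its trans contacts (both log axes, 1 point per 25-kb bin), with a dotted line at the 5 RNA genes that define a shared bin. The 16, 10, 2, 32, 337 and 81 bins of mESC 1FA, 2FA, ActD4, NPM, mOPC 1FA and mOPC NPM are plotted, and in mOPC 1FA nearly all bins lie low, with 1 RNA gene each.

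In mOPC 1FA the 2 leading Sfi1 bins received 90, 73 and 81 contacts and 25, 33 and 38 contacts, while the next bins were each tied to 1 or a few RNA genes. By gene, Sfi1 lay under 346 contacts (123, 107 and 116), followed by Slco4c1, an organic anion transporter, with 86, Arhgef3 with 76, Asap1, an Arf GTPase-activating protein, with 75, and Ano6, a lipid scramblase, with 63. One shared bin lay at Arid2, a subunit of a chromatin remodelling complex, with 19, 23 and 24 contacts from 5 RNA genes on 66 positions.

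Across the 26 bins with enough contacts to test between mESC 1FA and mOPC 1FA, all 26 were called (limma on log2 contacts per 1000000 protein-coding RNA interactions, Benjamini-Hochberg adjusted p under 0.05), which is 100%. Of these, 24 were higher in mOPC (92.3%) and 2 lower (7.69%), and 23 were listed at 0 in one of the groups. Those 23 entered the test only through the group where they were high, so the filter and the authors' lists fixed their calls, and neither they nor the 100% support a difference. Among the 3 bins listed in both groups, chr11:3175001-3200000 was lower in mOPC by a log2 difference of -0.93 (SE 0.169, limma adjusted p = 3.32e-05). Bin chr11:3150001-3175000 was lower by -0.25 (SE 0.103, limma adjusted p = 0.0261), a call that was lost in 8 of 14 alternatives. Bin chr11:3125001-3150000 was higher by 0.73 (SE 0.254, limma adjusted p = 0.0104), and this one turned to -2.21 when contacts were taken per 1000000 trans contacts.

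The RNA genes behind the contacts differed by cell type. In mESC 1FA 50 RNA genes were listed and no gene held more than 7.39% of the contacts, while in mOPC 1FA 75 genes were listed and 1 gene, Lhfpl3, held 43.0%. The genes with trans contacts were long and richly represented in the libraries: their median genomic span was 159 kb in mESC 1FA and 220 kb in mOPC 1FA, against 29.6 and 31.0 kb for genes with other interactions only. The median number of interactions per gene in the group was 6657.5 against 117 in mESC 1FA and 4350 against 96.5 in mOPC 1FA. More interactions give a gene more chance to pass the authors' test, and the part this plays was not tested.

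In the mESC groups the leading transcripts came from genes of many functions. Gm20388 gave 15, 29 and 19 trans contacts in the 1FA libraries, Exoc4, a subunit of the exocyst that tethers secretory vesicles, 17, 20 and 21, and Akap12, a scaffold for protein kinase A, 21, 16 and 14. Rbpms, an RNA-binding protein, gave 16, 12 and 12, Etl4 19, 11 and 9, and Jarid2, a partner of Polycomb repressive complex 2, 7, 18 and 10. Ptprg, a receptor tyrosine phosphatase, Arhgef18, Camk1d, a calmodulin-dependent kinase, and Kat6b, a histone acetyltransferase, gave 24 to 34 in all. For 7 of these 10 genes all contacts fell into the 3 bins around Sfi1, and for Gm20388, Exoc4 and Jarid2 32 of 63, 48 of 58 and 25 of 35 did. The leading pairs were Akap12 with chr11:3150001-3175000 (11, 8 and 6 contacts), Etl4 with the same bin (22 in all) and Exoc4 with chr11:3175001-3200000 (22 in all). In 2FA the leading pairs were Camk1d and Etl4 with that first bin, 18 contacts each, and Fgfr2, a fibroblast growth factor receptor, with mitochondrial DNA (3, 8 and 6). Gm20388 and Fgfr2 are long gene models, at chr8:119910841-124345722 and chr7:130162451-133123350 (GENCODE M21), and Gse1 overlaps the first. Whether tags under these 2 names came from other transcripts was not tested. The share of pairs seen in every library of their group was 90.8% in mESC 1FA and 90.0% in 2FA.

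In mOPC 1FA Lhfpl3, which encodes a tetraspan membrane protein known from oligodendrocyte progenitors, gave 612, 610 and 698 trans contacts. They reached 153 bins on 18 chromosomes, made up 4.91% of all of the gene's contacts, and only 0.521% of their RNA tags were exonic. Lhfpl3 lies on chromosome 5 at 22746059 to 23275597 (GENCODE M21, GRCm38), inside the stretch left out on the DNA side. Fhit, a dinucleoside polyphosphate hydrolase in a common fragile site, gave 87, 84 and 111, Sox6, a transcription factor of progenitor cells, 85, 87 and 73, and Auts2, a gene of neural development, 69, 84 and 62. Parp8 gave 51, 54 and 56, Zeb2, a repressor needed for myelination, 38, 36 and 33, Dscam, a neural adhesion molecule, 38, 31 and 27, and Son, a splicing cofactor of nuclear speckles, 39, 27 and 25. Zfhx3, a homeodomain factor, gave 31, 39 and 15, and Anks1b, a postsynaptic protein, 32, 24 and 26. For Fhit and Parp8 the trans contacts were 15.2% and 18.4% of all their contacts. Son was the exception in its RNA regions, with 56.0% exonic tags.

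**Figure D3:**
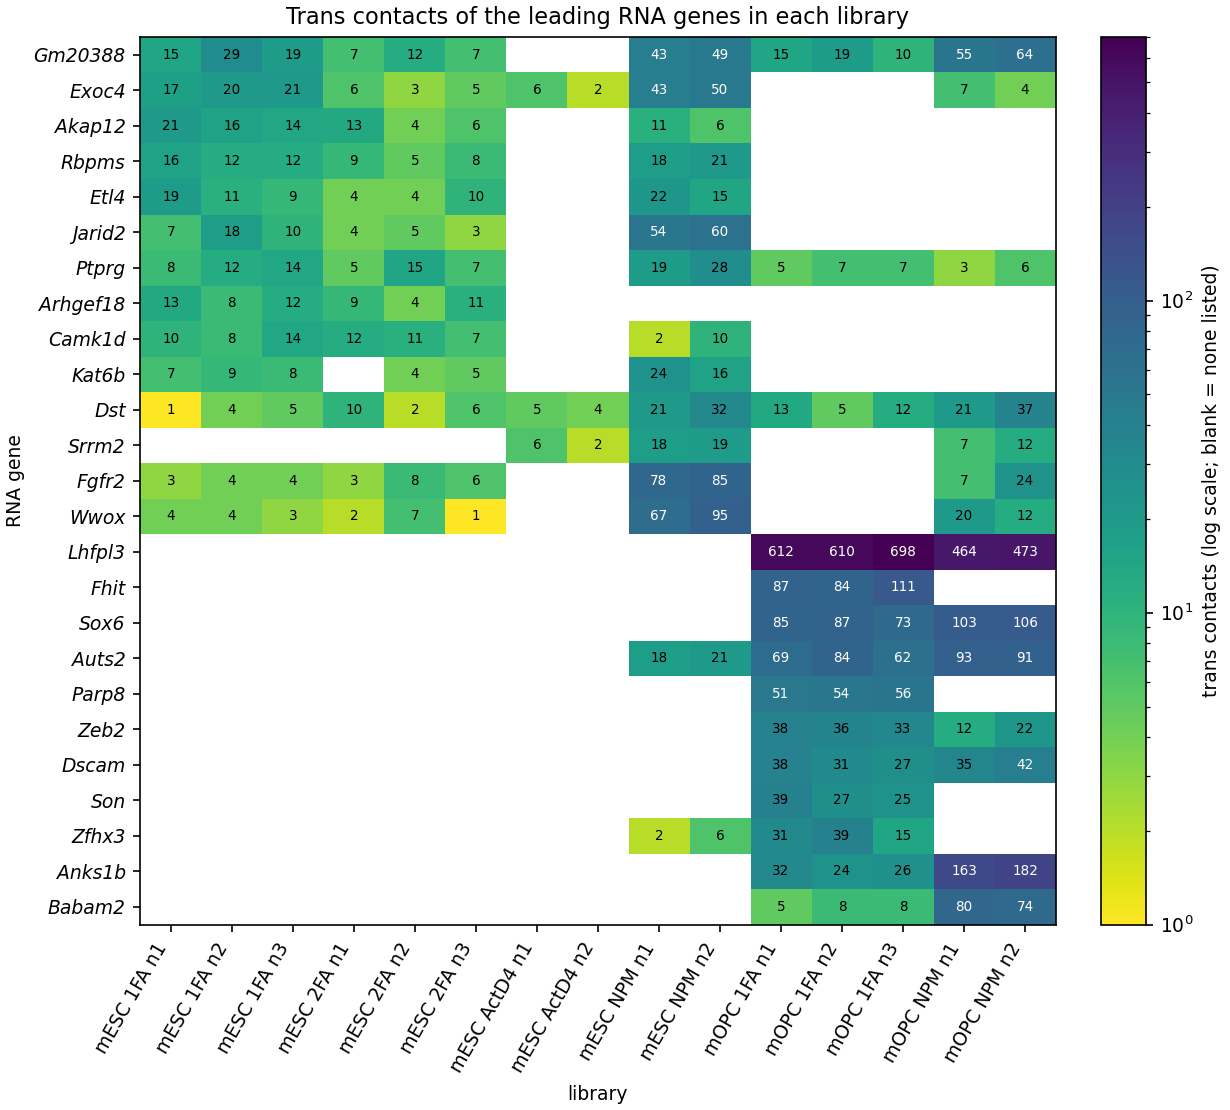
Trans contacts per library (colour and printed number) for 25 leading RNA genes (rows) in the 15 libraries (columns, ordered by group). Lhfpl3 stands out in the mOPC columns with 464 to 698 contacts, and Exoc4, Akap12 and Jarid2 are listed in mESC 1FA and not in mOPC 1FA.

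Of 39 RNA genes tested between mESC 1FA and mOPC 1FA, 36 were called by limma (92.3%), 26 higher in mOPC (66.7%) and 10 lower (25.6%), and without the shared bins 23 genes were called. Of the 36, 34 were listed at 0 in every library of one group and passed the filter only through the other, so their calls restate the listing. Lhfpl3, Fhit, Sox6, Auts2, Parp8, Zeb2, Dscam and Son were listed at 0 in mESC 1FA. Exoc4, Akap12, Rbpms, Etl4, Jarid2, Arhgef18, Camk1d, Kat6b, Ext1 and Usp7 were listed at 0 in mOPC 1FA. Of the 5 genes listed in both, 2 were called, Trrap and Dst. Both passed the filter only through mOPC, where they were high, so their calls support no difference either. Trrap, a scaffold of histone acetyltransferase complexes, had 1, 5 and 1 contacts in mESC and 15, 17 and 12 in mOPC, a log2 difference of 3.25 (SE 0.521, limma adjusted p = 0.000320), which was 0.31 and not called per 1000000 trans contacts. Dst, a cytoskeletal linker, was higher by 2.10 (SE 0.533, limma adjusted p = 0.00498), but per 1000000 trans contacts its difference was -0.84 and not called. Gm20388 (0.05, adjusted p = 0.877), Ptprg (-0.22, adjusted p = 0.420) and Dip2c were not called by limma and overlapped between groups.

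Of 30 oligodendrocyte progenitor genes, 8 of the 27 with any contact had trans contacts in mOPC 1FA, 2464 in all or 55.1% of the group, most of them from Lhfpl3, and none was listed in any mESC group. Of 30 pluripotency and stem cell genes, 2 of 28 had trans contacts in mESC 1FA, 49 in all or 5.74%: Jarid2 with 35 and Tet1, which oxidises methylcytosine, with 14. In mESC 2FA only Jarid2 was listed, with 12, and in ActD4 none. None of that list was listed in mOPC. These numbers stand beside 0.408% and 0.741% of all contacting genes with trans contacts in mESC 1FA and mOPC 1FA. Of 83 ribosomal protein genes 60 to 81 had any contact, depending on the group, and of 13 mitochondrial mRNA genes 0 to 7. None had a trans contact listed in any group. Of all contacting genes, 0.0379% in mESC ActD4 to 1.90% in mOPC NPM had trans contacts. At such shares few or none of these genes would be listed, so their absence is no result about them. The lists were chosen with earlier results known, and bulk libraries cannot tell fewer cells contacting from fewer contacts per cell.

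The mOPC 1FA contacts were further distinguished by runs of neighbouring bins contacted by the same RNA gene. Outside the shared bins and the similar-sequence pairs, mOPC 1FA had 39 runs of at least 2 bins with no more than 1 uncontacted bin between neighbours. They held 1453 of 3938 contacts (36.9%). On the same terms mOPC NPM had 7 runs with 187 of 849 (22.03%), and no run was found in the mESC groups, which had 8 to 198 such contacts. The longest was Fhit with chr16:35725001-36025000, where 10 bins over 300 kb held 135 contacts. Son met chr14:27325001-27425000, around Arhgef3, with 84 contacts, and Parp8 met chr3:70225001-70350000 with 60. Lhfpl3 met chr1:96775001-96875000, around Slco4c1, with 119 contacts, and its leading bin there gave the group's largest pair (25, 15 and 14). Auts2 met chr10:79600001-79750000 with 55.

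The number of partner chromosomes differed between genes. Fhit placed 230 of its 282 contacts on chromosome 16 and the other 52 on chromosome 3. All 91 contacts of Son lay on chromosome 14, all 85 of Zfhx3 on chromosome 16 and all 107 of Zeb2 on chromosome 15, and Dscam placed 88 of 96 on chromosome 3. Sox6 reached 7 chromosomes, with 78, 72 and 55 of its 245 contacts on chromosomes 4, 2 and 1 and 10 on each of the others, and Auts2 reached 5, led by chromosome 10 with 118 of 215. Lhfpl3 reached 18, but chromosome 15 alone took 579 of 1920 (191, 173 and 215), in 46 bins between 57850001 and 102675000, before chromosome 1 with 354 and chromosome 2 with 237. On chromosome 15 it met Pvt1, a long non-coding RNA gene next to Myc, at chr15:62075001-62175000 with 52 contacts and the bin that holds Myc with 16. By gene, Myc itself lay under 4 contacts of all RNA genes in the group. In mOPC NPM Lhfpl3 placed 377 of 937 contacts on chromosome 15 as well (185 and 192).

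Some contacts ran both ways, with the RNA of each gene meeting DNA within 500 kb of the other. In mOPC 1FA this held for 6 gene pairs. Dyrk1a, a kinase gene on chromosome 16, met the region of Zfhx3 on chromosome 8 with 28 contacts and Zfhx3 met the region of Dyrk1a with 85. Arid2 met Lrp1b with 46 and received 26, and Ankrd28 met Rcan1 with 38 and received 9. Asap1 and Tanc1 exchanged 11 and 11, Parp8 and Bach1 12 and 8, and Mapt and Atl1 8 and 8. The single pair in mESC was Srsf6, a splicing factor, with Cdc26, a subunit of the anaphase-promoting complex, in 2FA (10 and 11). Srsf6 also met the Cdc26 bin in mESC 1FA with 10 contacts. Rearranged chromosomes of the lines were not analysed here, and their part in the runs, the partner chromosomes and these reciprocal contacts was not tested. Other pairs outside the shared bins in mESC 1FA were few: Cadm1 met Rnf121 with 7, 2 and 2 contacts, and in 2FA with 6, 6 and 3, and Gm20388 met chr10:80750001-80775000 with 11, of which 7 lay under Dot1l, a histone methyltransferase gene.

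The question behind the 2% formaldehyde group is whether more crosslinking changes what is captured. Of 16 RNA genes tested, 6 were called (37.5%), all lower in 2FA (37.5%) and none higher (0%), with 7 at an unadjusted p under 0.05. Of the 13 listed in both groups, 3 were called, all lower. Exoc4 fell from 17, 20 and 21 contacts to 6, 3 and 5, a log2 difference of -1.76 (SE 0.460, limma adjusted p = 0.00285). Gm20388 fell to 7, 12 and 7, by -1.004 on the log2 scale (SE 0.298, limma adjusted p = 0.00741), and Akap12 to 13, 4 and 6, by -1.02 (SE 0.401, limma adjusted p = 0.0468). Per 1000000 protein-coding RNA interactions the libraries of the 2 groups overlapped for both of these genes. Usp7, Dip2c and Ext1 were listed at 0 in 2FA and were tested only through 1FA, so their calls restate the listing. Exoc4 and Akap12 each had fewer than 5 contacts in a 2FA library and passed the filter only through 1FA, where they were high. The calls of Exoc4 and Akap12 therefore support no difference, and neither does the tally of 3. The median over the 16 genes was itself -0.95, and per 1000000 trans contacts it was -0.19, with 1 gene higher, 3 lower and Exoc4 (-1.01, limma adjusted p = 0.122), Gm20388 and Akap12 no longer called. The 3 that stayed lower were those listed at 0. The groups had 21 pairs in common, 27.6% of the 1FA pairs and 52.5% of the 2FA pairs.

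After 4 h of actinomycin D, which stops RNA polymerase elongation, only 3 RNA genes had trans contacts, Dst (5 and 4), Exoc4 (6 and 2) and Srrm2, a splicing cofactor (6 and 2). All the Srrm2 contacts were exonic and met 1 bin, chr19:5425001-5450000, whereas all contacts of the other 2 genes met Sfi1. Of 19 genes tested, 9 were called (47.4%), but only 2 genes were listed in both groups. The count was 3 without mESC 1FA replicate 2 or ActD4 replicate 1, 4 without mESC 1FA replicate 3, and 2 with TMM scaling factors. Dst was the 1 gene higher (5.26%), from 1, 4 and 5 contacts in 1FA, by 3.64 on the log2 scale (SE 0.514, limma adjusted p = 4.44e-08). The listed pairs had at least 8 contacts over the ActD4 libraries and 7 over mESC 1FA, though the ActD4 libraries were far smaller. A gene listed in ActD4 is thus placed high on this scale by the listing, and the Dst call supports no difference. The 8 lower (42.1%), Gm20388, Akap12, Ptprg and Jarid2 among them, were all listed at 0 after the inhibitor and were tested only through their contacts in 1FA, so these calls restate the listing. Exoc4 was not called (0.77, SE 0.360, limma adjusted p = 0.0695). Per 1000000 trans contacts 2 genes were higher, Dst and Exoc4, and none was lower. These libraries were the smallest, with 220917 and 369709 protein-coding RNA interactions, and the contacts of a gene with few of them in 1FA may not have been detectable at this depth.

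In mESC NPM many more RNA genes had trans contacts than in mESC 1FA, 162 against 50. Of 75 tested, 74 were called (98.7%), 70 higher in NPM (93.3%) and 4 lower (5.33%). Without the shared bins 10 genes were called, and without mESC NPM replicate 2, when a gene needed fewer libraries to be tested, 127. Of the called genes, 50 were listed at 0 in one group, which fixed their calls, and the 24 listed in both groups were all higher in NPM. The listed pairs had at least 5 contacts over the mESC NPM libraries and 7 over mESC 1FA, though the NPM libraries held fewer interactions. A gene listed in NPM is thus placed high on this scale by the listing. Fgfr2, Wwox and others of the 24 had fewer than 5 contacts in each 1FA library and passed the filter only through NPM. The tally of 24 therefore supports no difference. Fgfr2 rose from 3, 4 and 4 contacts to 78 and 85, by 6.68 on the log2 scale (SE 0.363, limma adjusted p = 2.89e-08), and Wwox, an oxidoreductase gene in a fragile site, from 4, 4 and 3 to 67 and 95, by 6.65 (SE 0.364, limma adjusted p = 2.99e-08). Jarid2, with 54 and 60 contacts, and Exoc4, with 43 and 50, were also higher, by 4.71 and 3.62. These differences count contacts per 1000000 protein-coding RNA interactions, and the trans share of the whole group had risen too. Per 1000000 trans contacts 48 genes were higher and 18 lower, and of the 24 called genes listed in both groups 20 changed sign: Fgfr2 and Wwox stayed higher, by 1.87 and 1.84, Jarid2 lay at -0.10 and Exoc4 at -1.19.

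The genes listed only in NPM added further functions. Msi2, an RNA-binding protein, gave 21 and 35 contacts, Tead1, a transcription factor of the Hippo pathway, 20 and 23, Rad51b, a recombination factor, 25 and 24, and Macf1, a cytoskeletal crosslinker, 23 and 22, with none listed in 1FA. St13, a cochaperone, gave 29 and 17. Arhgef18, Dip2c, Usp7 and Vps50 were listed in 1FA and at 0 in NPM. Of the secretory pathway list, 5 of 20 genes had 53 trans contacts, and in no other group was one listed. The 5 were Fn1 with 16, Calr and Canx, the chaperones of the endoplasmic reticulum, with 10 each, Col4a1 with 9 and Lamc1 with 8. All 10 Calr contacts were those of the similar-sequence pair with Calr-ps shown above. Of the 28 histone genes 21 had any contact, and 3, Hist1h4d, Hist1h1c and Hist1h3c, had 34 trans contacts together, again in this group alone. Both counts stand beside 1.54% of all contacting genes with trans contacts in mESC NPM. In the other groups that share was 0.0379% to 1.90%, at which few or none of these genes would be listed. Their absence from those groups is thus no result about them. Per 1000000 contacts over all DNA, the histone list held 755 to 2399 in mESC NPM and 69.0 to 90.0 in mESC 1FA. The secretory list held 8103 to 9933 in mESC NPM and 2390 to 3197 in mESC 1FA. Both lists were thus captured more in mESC NPM, and the part this plays in their trans contacts was not tested. From the pluripotency list 5 of 27 genes with any contact had 179 contacts, led by Jarid2, Tet1 with 36 and Esrrb, an orphan nuclear receptor, with 12, beside 1.54% of all contacting genes with trans contacts. The leading pairs were St13 with the Gabrb1 bin (29 and 17), Fgfr2 with the ribosomal RNA bin on chromosome 18 (29 and 9) and Wwox with chr11:109000001-109025000 (11 and 22).

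In mOPCs NPM brought 232 RNA genes against 75. Of 143 tested, 135 were called (94.4%), 123 higher in NPM (86%) and 12 lower (8.39%). Without the shared bins 35 genes were called. Of the called genes, 106 were listed at 0 in one group, which fixed their calls, and of the 37 listed in both groups 29 were higher in NPM and none was lower. Some of the 37, such as Adgrl3 (3, 3 and 3 in 1FA) and Asap1 (3, 4 and 4), had fewer than 5 contacts in each 1FA library. They passed the filter only through NPM, so the tally does not support a direction. Anks1b rose from 32, 24 and 26 contacts to 163 and 182, by 3.34 on the log2 scale (SE 0.195, limma adjusted p = 1.81e-05). Babam2, a DNA repair factor, rose from 5, 8 and 8 to 80 and 74, by 4.09 (SE 0.301, limma adjusted p = 5.26e-05), and Cntn1, an adhesion molecule of axons and glia, from 5, 4 and 6 to 77 and 62, by 4.37 (SE 0.257, limma adjusted p = 1.86e-05). These 3 were higher per 1000000 trans contacts as well, by 1.23, 1.98 and 2.26. In mOPC NPM shared nuclear bins held 225 of 345 Anks1b contacts and 124 of 154 Babam2 contacts, and mitochondrial DNA held 24 and 20. Babam2 lies in the stretch of chromosome 5 left out on the DNA side.

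Lhfpl3 remained the leading gene, with 464 and 473 contacts, but differed by only 0.25 (SE 0.112, limma adjusted p = 0.0827), which overlapped between groups and was not called. Sox6 rose by 1.05 (SE 0.141, limma adjusted p = 0.000792), Auts2 by 1.06 and Dscam by 0.97, yet per 1000000 trans contacts they were lower, by -1.06, -1.05 and -1.15, as was Lhfpl3 by -1.86. On that scale 105 genes were higher and 22 lower. Fhit, Parp8, Son and Zfhx3, with 94, 53.7, 30.3 and 28.3 contacts per library in 1FA, were listed at 0 in NPM. The genes listed only in NPM included the neural genes Grik2, a glutamate receptor subunit (65 and 51), Tnr, an extracellular matrix protein of oligodendrocytes (61 and 53), Erbb4, a neuregulin receptor (43 and 34), and Ank2, a membrane adaptor (49 and 30), besides Xylt1 (68 and 47), Agap1 (36 and 62) and Mmp16 (38 and 37). Of the progenitor list 14 of 30 genes had 1892 contacts, 23.8% of the group, beside 1.90% of all contacting genes with trans contacts. The groups had 37 pairs in common, 9.34% of the 1FA pairs and 5.96% of the NPM pairs, and mESC NPM and mOPC NPM had 23.

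Many NPM pairs outside the shared bins stacked on few DNA positions. Pairs with no more distinct DNA positions than 50% of their contacts numbered 12 of 27 in mESC NPM, with 166 contacts of which 90.4% were exonic, and 14 of 72 in mOPC NPM, with 219 contacts of which 52.1% were exonic. None of the 348 pairs in mOPC 1FA and none of the 12, 6 and 1 in mESC 1FA, 2FA and ActD4 did so. St13 met the Gabrb1 bin with 46 contacts in mESC NPM, all exonic, from 34 RNA positions onto 2 DNA positions, and with 13 contacts onto 2 positions in mOPC NPM. Ddx17, an RNA helicase, met a single position of the X chromosome with 45 contacts in mOPC NPM (22 and 23) from 39 RNA positions. Lines with the same RNA and DNA position had been merged, so contacts of a library on 1 DNA position must differ in RNA position. The varied RNA side of these pairs is therefore no separate result. Over all groups 96.4% to 100% of contacts had a distinct RNA position.

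**Figure D4:**
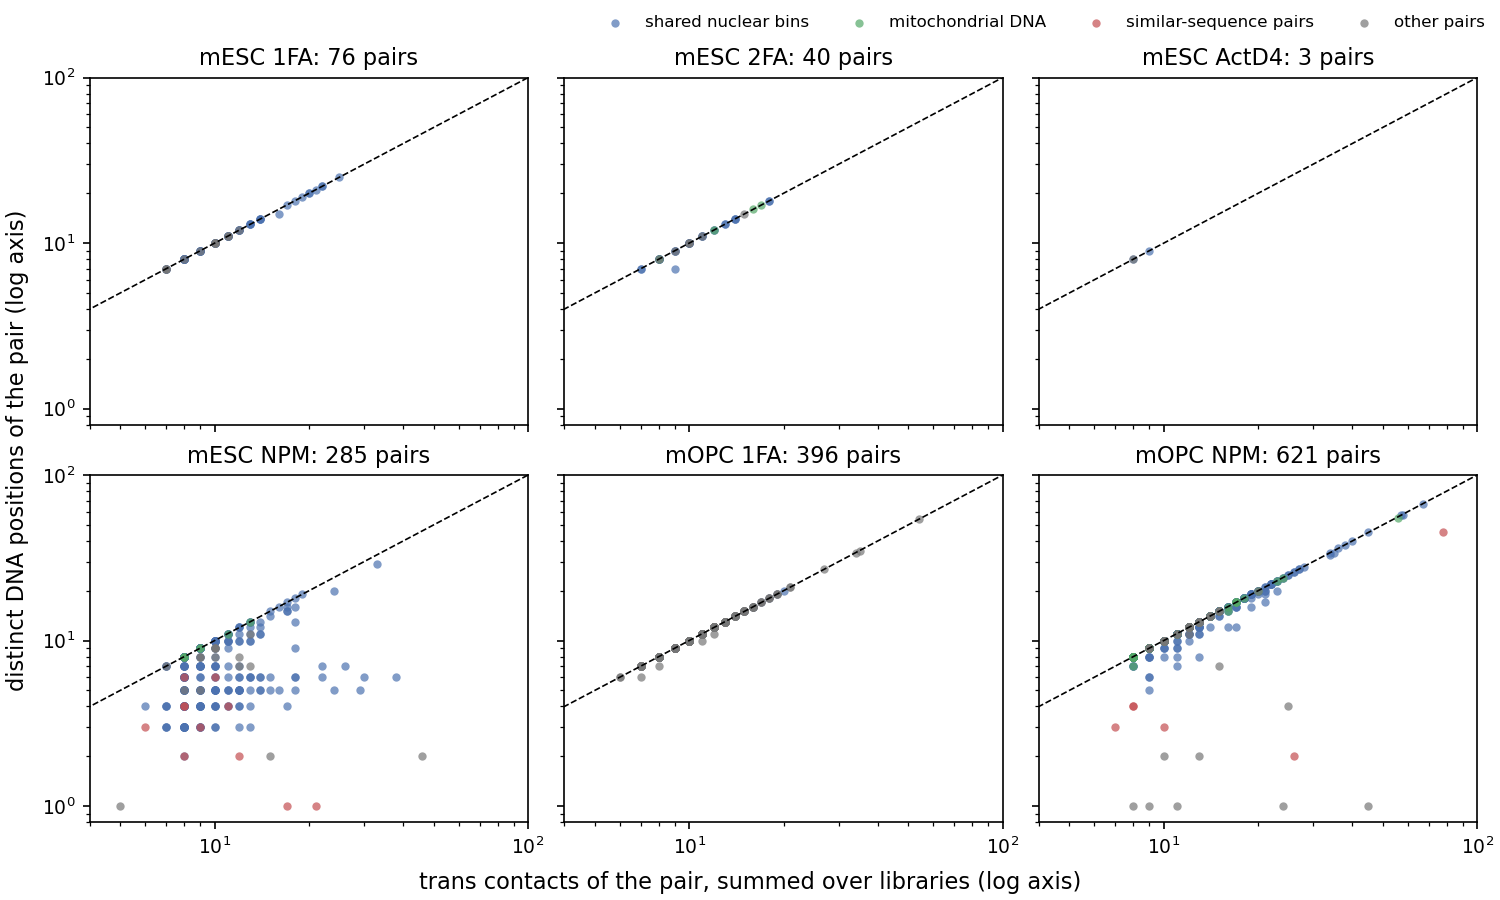
For each group, distinct DNA positions of a pair against its trans contacts (1 point per pair of RNA gene and bin), with a dashed line where every contact has its own position. The 396 pairs of mOPC 1FA lie on or just under the line, while NPM pairs such as the 46 contacts of St13 on 2 positions fall far under it.

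The similar-sequence pairs printed at the start were part of this picture. They held 118 contacts in mESC NPM (3.83%) and 137 in mOPC NPM (1.72%), with 90.7% and 76.6% exonic tags, and none in the 4 other groups. Not each tag in such a pair had a match: 71 of 3082 trans contacts in mESC NPM, from 11 genes, and 45 of 7961 in mOPC NPM, from 6 genes, had a stretch with at least 23 of 27 bases identical near their own DNA tag. Of these, 66 and 44 were exonic, which is 9.15% and 4.75% of the exonic contacts of the groups. The Slc5a6 pair was the largest pair of mOPC NPM (55 and 23 contacts, on 45 DNA positions), and the Slbp pair held 26 contacts there and 21 in mESC NPM, on 2 positions. Slc5a6 encodes a vitamin transporter and Slbp the protein that binds the stem-loop of histone mRNAs. The other leading pairs of mOPC NPM joined Lhfpl3 to chr11:3150001-3175000 (30 and 37) and to chr19:5800001-5825000 (32 and 26).

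An intronic tag can come from unspliced RNA or from an excised intron, and an exonic tag from spliced or unspliced RNA. Most trans contacts were intronic except after actinomycin D. Exonic tags made up 13.9%, 12.8% and 16.8% of trans contacts in mESC 1FA, 14.8%, 6.90% and 14.2% in 2FA, and 6.72%, 5.12% and 4.95% in mOPC 1FA. In NPM they made up 27.8% and 18.7% in mESC and 13.5% and 9.74% in mOPC. After actinomycin D the shares were 64.7% and 62.5%, of 17 and 8 contacts. The ActD4 libraries thus lay above all others, and all 16 exonic contacts came from Dst (8 of 9) and Srrm2 (8 of 8), with none of 8 from Exoc4. In mESC 1FA 6 of 10 Dst contacts were exonic.

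The mOPC 1FA libraries were below mESC 1FA by -8.88 percentage points on average (exact permutation p = 0.1, the smallest possible). Without the RNA genes of the start of chromosome 5, Lhfpl3 among them, the difference was -5.27 points, without the 10 RNA genes with most contacts over all groups it was -3.99, and with the excluded DNA regions counted it was -15.6. The 2FA libraries differed from 1FA by -2.52 points (exact p = 0.6), a direction that turned to 5.45 without the shared bins and to 0.0119 without mESC 2FA replicate 2. ActD4 lay 49.1 points above mESC 1FA, mESC NPM 8.77 above, and mOPC NPM 6.02 above mOPC 1FA, each with an exact p of 0.2, the smallest that 3 against 2 allows. Without the shared bins these differences were 85.5, 43.3 and 13.1 points, with the excluded regions counted 24.3, 1.93 and 1.12, and the mOPC NPM difference was 2.20 without the RNA genes of the start of chromosome 5. The mESC NPM difference was 4.24 without replicate 1 of that group. The NPM effect differed by -2.75 points between cell types (exact p = 0.68).

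The cis contacts of all protein-coding RNAs, with DNA of their own chromosome, had exonic shares of 12.6% to 14.5% in mESC 1FA, 10.9% to 12.8% in 2FA, and 21.8% and 22.3% in ActD4. They were 33.7% and 29.2% in mESC NPM, and for the mOPC groups 10.2% to 11.4% with 1% formaldehyde and 29.8% and 24.0% without proteins. Trans was below cis in all 7 libraries of mOPC 1FA and the NPM groups, with differences of -4.72 to -16.3 points, and above it in ActD4, by 42.9 and 40.2 points. In mOPC 1FA, where Lhfpl3 gave 1920 of 4469 contacts with 0.521% exonic tags, the differences of -4.72, -5.34 and -5.23 points were -0.236, -2.23 and -1.97 without the RNA genes of the start of chromosome 5, and 2.23, 0.314 and 0.874 without the 10 leading RNA genes. In mESC NPM -5.95 and -10.5 turned to 33.5 and 19.1 without the shared bins. Over the 15 libraries the mean difference was 1.69 points (exact sign-flip permutation test, 32768 assignments, p = 0.683), and it turned negative without either ActD4 library.

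**Figure D5:**
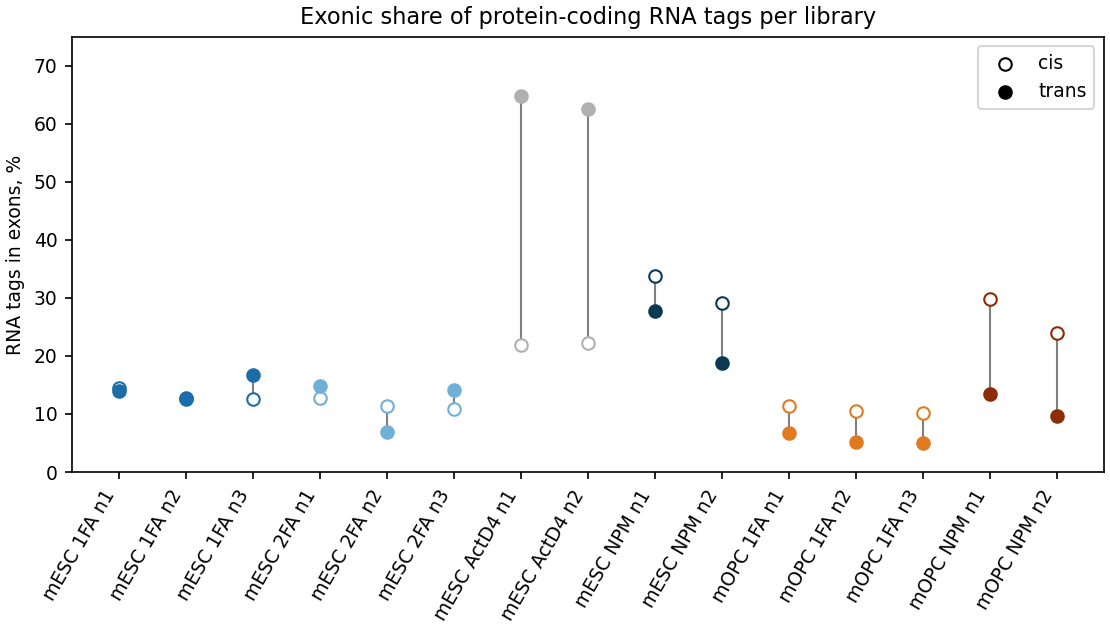
Exonic tags in percent of trans contacts (filled) and of cis contacts (open) of protein-coding RNAs, 1 pair of points per library, grouped by condition. The ActD4 trans points, 64.7% and 62.5%, lie far above their cis points, and in mOPC 1FA and both NPM groups the trans points lie below, which turned in mESC NPM without the shared bins and in mOPC 1FA without the 10 leading RNA genes.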

How the data were processed

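RADICL-seq was performed on 15 libraries of mouse cell lines, with 32 GEO samples because RNA and DNA tags, and 1 repeat sequencing run, were entered apart. Per the study's methods and the submitters' processing notes, the authors removed adapters and ribosomal RNA reads, mapped tags to mm10 with BWA 0.7.15-r1140, kept uniquely mapped tags, annotated them with GENCODE, divided the genome into 25-kb bins and tested each pair of transcript and bin on pooled replicates with a one-sided binomial test. The deposited files list each significant interaction on a line with its adjusted p-value, a column used only to describe pairs, and hold no column of counts.

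Lines with the same RNA position, strand and gene and the same DNA position and bin were merged into 1 interaction (18601 lines became 16825 contacts). Contacts were counted per library, RNA gene and bin with numpy 2.4.6, pandas 2.3.3, pysam 0.24.0 and matplotlib 3.10.9, and shares were compared by exact permutation tests over libraries. Genes and bins with at least 5 contacts in as many libraries as the smaller group has were tested in limma 3.58.1 (R 4.3.3) on log2 of contacts per 1000000 protein-coding RNA interactions with a prior count of 0.5, adjusted over all genes tested. The limma step was tested on simulated counts. Each fold difference is therefore on a scale with that prior count, which shrinks low values. It was added before scaling, so a count of 0 lies higher in smaller libraries. On the log2 scale a gene at 0 had a mean of -2.26 in mESC 1FA, 0.81 in mESC ActD4 and 0.12 in mESC NPM. Differences of low counts are thus tilted towards the group with smaller libraries. Replicates are described as biological. Values cover the listed interactions, and the number of contacts limits the precision, beside the spread between libraries.

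The contacts and the gene lists were chosen with earlier results of these data known. Named were the 10 leading RNA genes of mESC 1FA and mOPC 1FA and the 5 of other groups, up to 8 called genes per direction with separate groups and a mean of at least 20 contacts, the leading 5 bins and genes on the DNA side, the leading 3 pairs, and up to 4 genes per list. Other named genes, such as those in runs, two-way contacts or few-position pairs, were chosen after their values were seen. Sequence of chromosome 18 is not reported here. Gene positions are from GENCODE M21 and sequences from the RefSeq GRCm38 assembly. Alternatives were another scaling, filter and prior count, the excluded regions counted, a replicate block, each library left out and, chosen after seeing the data, leaving out shared bins or the RNA genes of the start of chromosome 5.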

Additional observations from a re-analysis of the deposited data

Results flagged for a closer look

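The exonic share of trans contacts, less that of cis contacts in the same library, lay 49.8 percentage points lower in mESC NPM than in mESC ActD4 (a difference of -49.8). It drew attention because every library of the first group moved one way, by -5.95 and -10.5 points, and every library of the second the other way, by 42.9 and 40.2 points. Without the DNA bins shared by many RNA genes, the mESC NPM values turned to 33.5 and 19.1 points. The difference was not tested, and the ActD4 values rest on 17 and 8 contacts, whose exonic tags all came from Dst and Srrm2.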

How the results depend on the processing

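Of 274 alternatives for 19 results (shares, and counts of called genes or bins), 230 were scored as unchanged. For a count this means a count of similar size, whichever genes or bins were called. Where 3 libraries against 3 or 2 allow no exact p under 0.1 or 0.2, no call could be lost. This tally is thus partly fixed by the design. For 32 named genes and bins, 430 of 442 alternatives left direction and call unchanged. Among them are genes listed at 0 in one group, whose calls the listing fixes. Without the shared bins, the NPM difference in mOPC turned to -0.0315 percentage points (exact p = 0.2), the NPM difference over both cell types shrank to 0.00113 (exact p = 0.92), the exonic difference of 2FA turned to 5.45 points, and the called genes numbered 23 between cell types, 10 for mESC NPM and 35 for mOPC NPM. Without the shared bins, 2FA and ActD4 could not be fitted, with too few genes left. The mOPC minus mESC share was -1.26 with the excluded regions, 0.0251 without the 10 leading RNA genes (exact p = 0.517) and 0.00839 without the RNA genes of the start of chromosome 5. Leaving out each library in turn gave 0.0333 to 0.101 for it, with an exact p of 0.0667 in 8 cases (each 1FA library, and the second library of either NPM group), -3.93 to 0.0119 for the exonic difference of 2FA (the highest without mESC 2FA replicate 2), and -1.25 to 2.98 for trans minus cis, with -1.25 and -1.06 without the first and the second ActD4 library. It gave 3 to 10 called genes for ActD4 (3 without mESC 1FA replicate 2 or ActD4 replicate 1, 4 without mESC 1FA replicate 3), 72 to 127 for mESC NPM (127 without mESC NPM replicate 2) and 41 to 73 bins, and with a library left out a gene or bin needed fewer libraries to be tested in comparisons where the smaller group shrank. A group left with 1 library was assumed to vary like the other.

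Without the filter on low counts the calls were 112 between cell types, 47 for 2FA, 161 for mESC NPM, 254 for mOPC NPM and 340 bins. With the excluded regions counted they were 129, 34 for ActD4, 802, 253 and 64, and Gm20388 after actinomycin D turned to 0.13. For ActD4, contacts per 1000000 trans contacts and TMM factors each gave 2 calls and a prior count of 2 gave 5. Without the RNA genes of the start of chromosome 5 the called bins were 15. Per 1000000 trans contacts the median over tested genes moved by -2.94 (cell types), 0.75 (2FA), 1.54 (ActD4), -4.81 (mESC NPM) and -2.11 (mOPC NPM) on the log2 scale. The cause was not tested where none is given.

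Libraries share replicate numbers, but the numbers were not found to pair them: deviations of same-numbered mESC and mOPC 1FA libraries correlated at -0.0571, 0.0286 and 0.226. With the number as a replicate block the share differences were 0.0795, -0.00482, -0.00796, 0.328 and 0.305, the exonic differences -8.88, -2.52, 50.3, 9.92 and 5.69, the called genes 36, 6, 11, 70 and 134, and the called bins 25, without chr11:3150001-3175000.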
